A study of Mus musculus with 3 samples.

Results

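The genes described here code for the heat shock proteins and their closest partners in protein folding: the HSP90, HSP70, HSP110, HSP60, HSP10 and small heat shock proteins, the DNAJ proteins, the subunits of the chaperonin CCT, and the heat shock factors Hsf1 and Hsf2. They were chosen by gene symbol and not by their values, though earlier results of these data were known. Among 20027 genes that could be named on the array, 83 genes with 139 probes belonged to them, of which 38 had several probes. The largest families were DNAJC with 28 genes, HSP70 with 13 and DNAJB with 12, and CCT had 9 genes. The pattern of symbols also took in Hspbap1, which is a partner of a small heat shock protein and no heat shock protein itself.

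Blastocysts of ICR mice were pooled by condition, and each of the 3 pools was read on 1 array. For young blastocysts the mothers were 3 to 6 weeks old, and for aging blastocysts and CXCL5-CXCR2 signaling-suppressed aging blastocysts, called suppressed aging or suppressed below, they were 43 to 53 weeks old. In all groups, zygotes were flushed from superovulated and mated females 18 h after hCG and cultured for 96 h in KSOM medium, to which 10 μg/ml of a neutralizing antibody to CXCL5 and 10 nM of a CXCR2 antagonist were added in the suppressed group only. Each array held RNA of 30 pooled blastocysts and was not replicated, so a value has no spread between pools, no test was possible and no difference can be set against the variation between embryos. The treatment acts on a secreted protein and its receptor, so no transcript checks it. In a pool, fewer cells of a type and less RNA per cell cannot be told apart. No array held treated young blastocysts.

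Chaperones hold newly made or unfolded proteins and help them to reach their folded state. HSP70 binds short stretches of unfolded chains in a cycle of ATP hydrolysis, DNAJ proteins deliver the client and start that hydrolysis, and HSP110 proteins release the nucleotide so that the client can leave. HSP90 finishes and holds signalling proteins such as kinases and steroid receptors, CCT and HSP60 enclose a client in a chamber, and small heat shock proteins keep clients from aggregating. Under stress, the factor Hsf1 switches on many of these genes. In the mouse embryo, the inducible HSP70 genes are among the first to be transcribed when the embryonic genome becomes active, and the constitutive chaperones are abundant through the preimplantation stages.

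A level is given below as the log2 intensity of a probe minus the 75th percentile of its array, so that a level of 0 is brighter than 75% of the probes. A difference is the log2 level of one pool minus that of another, and a difference of 1 is 2-fold. Levels were compared only between arrays for the same probe, never between genes. Where the scanner software called a probe above background on 1 array and not on the other, the difference is the smallest that the detection limit allows, and is written as at least that size. That limit stood at levels of -4.20, -4.32 and -3.93 for the young, aging and suppressed arrays, of whose probes 58.4%, 58.7% and 56.4% were above background. Spots of the same probe repeated on an array gave an SD of 0.069 for a difference between arrays, but no probe of the 83 genes was repeated, and this error does not include the pools, their amplification or labelling. All arrays shared 1 slide and 1 scan.

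Of the 83 genes, 70, 75 and 73 were above background in young, aging and suppressed blastocysts, and 65 in all 3 pools. Genes not above background on any array were Hspa13, a membrane-bound HSP70 of the endoplasmic reticulum, Hspb3, a small heat shock protein of muscle, Dnajb13, a DNAJ protein of the sperm tail, and Dnajc5b. The 3 HSP90 genes, the 9 CCT genes, Hspd1, Hspe1, Hsph1, Hsf1 and Hsf2 were above background in every pool. Markers of the blastocyst's own lineages were present as well, with 7 of 7 trophectoderm, 6 of 6 epiblast and inner cell mass and 5 of 5 primitive endoderm genes above background on every array.

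**Figure D1:**
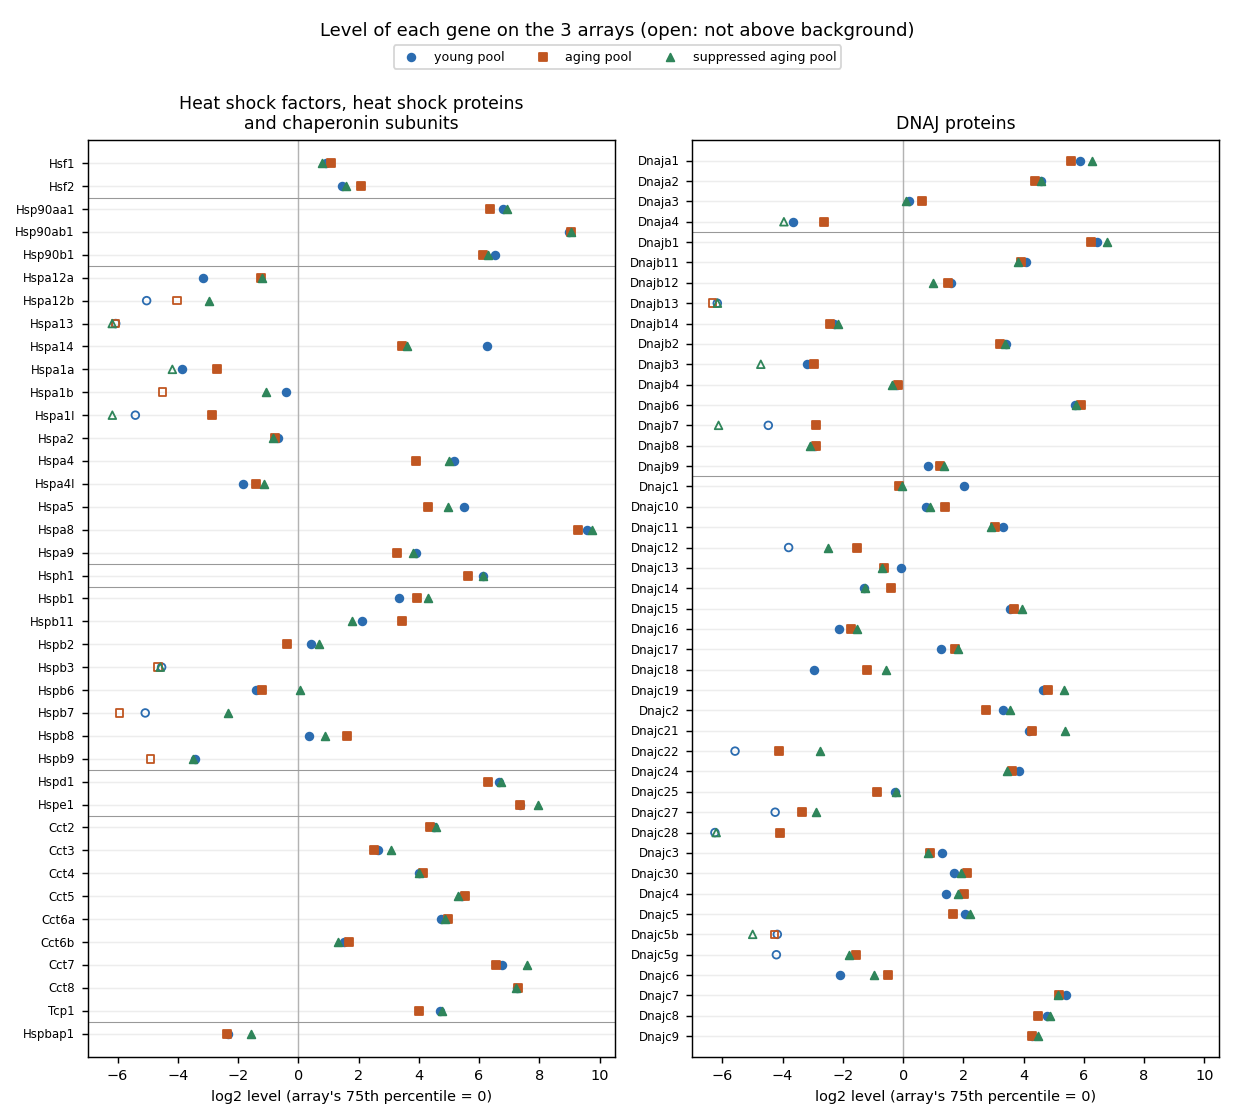
Log2 level (x axis, 75th percentile of the array at 0) of each of the 83 genes on the young, aging and suppressed aging arrays, with 1 symbol per array and open symbols for probes not above background. Hspa8, Hsp90ab1 and most chaperonin subunits have their 3 symbols close together, whereas Hspa1b, Hspa14 and Dnajc1 have 1 symbol well apart from the others.

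Taken over all 83 genes, the shares past 2-fold lay within a few percentage points of those over all genes. Between aging and young blastocysts, 77 of them could be compared, 11 (14.3%) were over 2-fold higher and 5 (6.49%) over 2-fold lower in aging blastocysts, where 9.92% and 8.90% of all 14757 genes compared were. After suppression, 9 of 78 (11.5%) were over 2-fold higher than in aging blastocysts and 5 (6.41%) lower, against 8.76% and 8.42% of all genes. Between suppressed aging and young blastocysts, 11 of 76 (14.5%) were over 2-fold higher and 2 (2.63%) lower, against 8.82% and 7.32%. Differences over 5-fold were found for 3 genes, 1 gene and 3 genes in these comparisons (3.90%, 1.28% and 3.95%), where all genes gave 2.51%, 2.22% and 2.27%. Most of the genes past 2-fold were dim. Among the 49 with a level above 0 on all arrays, 5 (10.2%), 4 (8.16%) and 2 (4.08%) were over 2-fold apart in either direction, against 7.13%, 5.86% and 6.46% of all genes that bright. The median difference of the genes that could be compared was 0.03 for aging versus young, 0.15 for suppressed versus aging and 0.09 for suppressed versus young blastocysts, beside 0.04, -0.00 and 0.04 over all genes.

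The families differed in what lay behind these totals. The HSP90, HSP70, HSP110, HSP60 and HSP10 genes, 19 in all, are called the large heat shock proteins below, a grouping made after their values were seen. In aging blastocysts, 11 of the 17 that could be compared were lower than in young ones, with a median difference of -0.36. After suppression, 15 of 18 were higher than in aging blastocysts, with a median of 0.45. In suppressed versus young blastocysts, 8 were higher and 9 lower, and the median was -0.01. The first 2 comparisons share the aging array, so a low reading of a gene on that array enters both, and with opposite signs, and the third shares an array with each. Trophectoderm markers had medians of -0.17 and 0.14 in the first 2 comparisons and epiblast and inner cell mass markers 0.73 and -0.24, and the part of the balance of these lineages was not tested. The DNAJ genes gave medians of 0.07, -0.02 and 0.13, and the CCT genes 0.03, -0.07 and 0.07, or -0.23, 0.30 and 0.03 with all probes of a gene averaged.

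**Figure D2:**
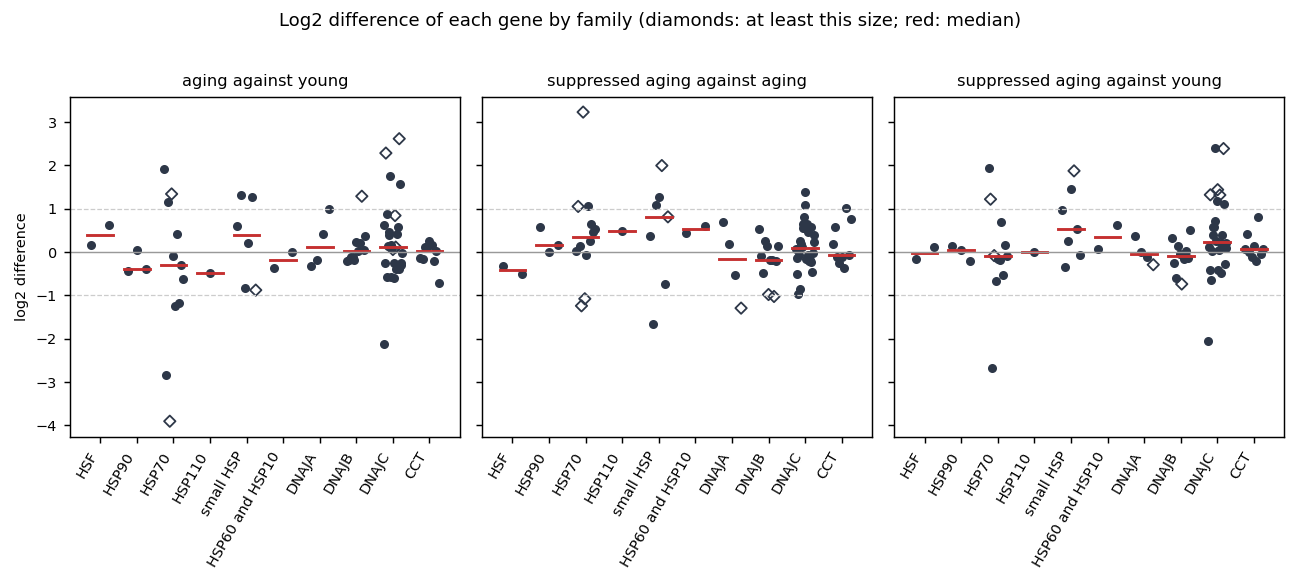
Log2 difference (y axis) of each gene by family, in 3 panels for aging versus young, suppressed versus aging and suppressed versus young, with filled points for genes above background on both arrays, open diamonds for differences of at least that size, red lines for family medians and dashed lines at 2-fold. The HSP90, HSP70 and HSP110 medians lie below 0 in the first panel and above it in the second, where HSP90 is at 0.17 and DNAJB at -0.17. The DNAJB, DNAJC and CCT medians, by the probe used, lie between -0.17 and 0.12 in both.

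The class of genes with a level above 0 on all arrays was, like the grouping, made after the values were seen. Both comparisons with the aging pool use the same aging array, so a low reading there enters both. In that class, most large heat shock proteins differed in the same direction, by different amounts. Of 11 such genes, 9 were lower in aging than in young blastocysts, with a median of -0.43 and a range from -2.83 for Hspa14 to 0.05 for Hsp90ab1, whereas 55.1% of 6858 genes of that brightness were higher. In suppressed versus aging blastocysts, 10 lay above 0 by at least 0.15 and Hsp90ab1 at 0.00, with a median of 0.48 and a highest value of 1.07, whereas 50.2% of the 6858 genes were higher. Hsp90ab1 lay at -0.06, -0.11 and -0.06 under normexp, quantile and housekeeping scaling. The count of all large heat shock proteins that were higher went from 15 of 18 to as low as 13 of 18, under housekeeping scaling. Under that scaling 45.4% of all genes were higher, and 15 of the 18 lay above the median of all genes. Genes with a level above 3, 2234 in all, had medians of 0.03 and 0.04 in these comparisons. In suppressed versus young blastocysts, 5 of the 11 were higher and 6 lower. The 24 DNAJ genes of that brightness had 14 lower in aging blastocysts, with a median of -0.14, and 13 higher after suppression, with a median of 0.12. These medians had the same signs as those of the large heat shock proteins and were smaller. All genes of that brightness had medians of 0.06 and 0.00.

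**Figure D3:**
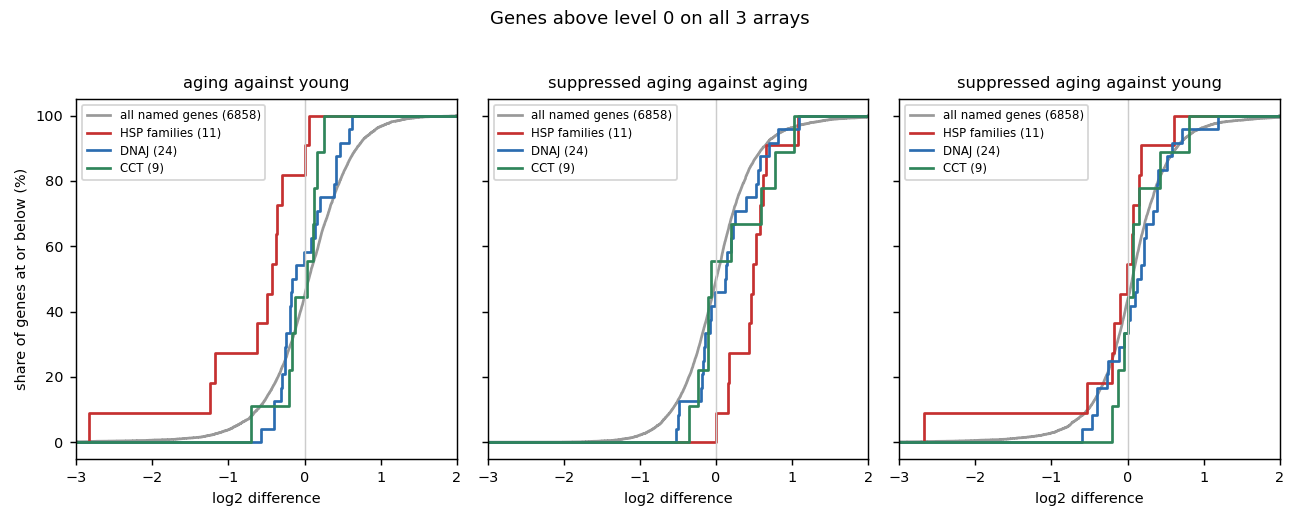
Share of genes (y axis, %) with a log2 difference at or below the value on the x axis, for genes with a level above 0 on all 3 arrays: all named genes (grey, 6858), the large heat shock proteins (red, 11), DNAJ (blue, 24) and CCT (green, 9). The red line lies to the left of the grey one in aging versus young, to its right in suppressed versus aging, and close to it over most of its length in suppressed versus young.

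Hspa8 codes for the constitutive HSP70 of the cytosol, and 4 probes read it. Its brightest probe read 9.59 in young, 9.30 in aging and 9.76 in suppressed blastocysts. The aging pool was the lowest by each of the 4 probes, with differences from young between -0.29 and -0.14, and the suppressed pool lay 0.07 to 0.46 above the aging pool. Hspa5, or BiP, is the HSP70 of the endoplasmic reticulum, and read 5.48, 4.30 and 4.95. It was lower in aging blastocysts by all 3 of its probes, with differences of -1.18, -0.68 and -0.36, and higher after suppression by 0.65, 0.52 and 0.38. The probe used was thus 2-fold apart where the others were not. Hspa9 codes for mortalin, the HSP70 of the mitochondrial matrix, and read 3.90, 3.27 and 3.80. Its second probe gave -0.42 for aging versus young and 0.77 for suppressed versus aging, beside -0.63 and 0.53 for the first.

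Hspa4 and Hsph1 code for relatives of HSP70 that act as its nucleotide exchange factors. The level of Hspa4 was 5.17 in young, 3.92 in aging and 4.99 in suppressed aging blastocysts, a difference of -1.25 and then of 1.07. Its second probe read smaller differences in the same directions, -0.53 and 0.37. Hsph1, the HSP110 gene, read 6.12, 5.63 and 6.11. All 3 of its probes were lower in aging than in young blastocysts, with differences of -0.49, -1.08 and -0.83, and higher after suppression, by 0.48, 1.22 and 0.60, and they lay within -0.22 and 0.14 of young in the suppressed pool. Hspa4l, chosen after its values were seen, belongs to the same group, and its probes ran in different directions for aging versus young, where the probe used gave 0.43 and another -2.36. All 3 of its probes were higher in suppressed aging than in aging blastocysts, by 0.26 to 1.73.

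The HSP90 genes differed among themselves. Hsp90aa1, the stress-inducible HSP90 of the cytosol, read 6.78 in young, 6.35 in aging and 6.93 in suppressed aging blastocysts. Both of its probes were lower in aging blastocysts, at -0.43 and -0.23 from young, and higher after suppression, by 0.57 and 0.52. Hsp90ab1, the constitutive form, read 8.99, 9.04 and 9.04, and its 1 probe placed the 3 pools within 0.06. That is less than the SD of 0.069 that repeated spots gave for a difference between arrays. Hsp90b1, the HSP90 of the endoplasmic reticulum, read 6.52, 6.14 and 6.31, lower in both aging pools than in the young one.

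Hspd1 and Hspe1 code for HSP60 and its lid HSP10, which form the folding chamber of mitochondria. Hspd1 read 6.65, 6.29 and 6.72, and both probes were lower in aging blastocysts, at -0.36 and -0.87 from young, and higher after suppression, by 0.43 and 0.73. Hspe1 read 7.34, 7.34 and 7.96, so that the probe used placed young and aging blastocysts together and the suppressed pool 0.61 higher. Its other probes gave 0.25 and -0.19 for that comparison, so the direction for Hspe1 depends on the probe.

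Counted by probe, the large heat shock proteins with several probes numbered 10. Of their 25 probes that could be compared, 23 (92.0%) were lower in aging than in young blastocysts, whereas 49.3% of the 12149 probes of all genes with several probes were lower. In suppressed versus aging blastocysts, 24 of 26 probes (92.3%) were higher, whereas 52.3% of probes of all such genes were. In suppressed versus young blastocysts, 12 were higher and 14 lower. In 8 of the 10 genes every probe was lower in aging blastocysts, and in 8 every probe was higher after suppression, where 24.6% and 26.5% of all genes with several probes ran one way like that. Probes of a gene read the same RNA on the same arrays and are no replicates. This count by probe was added after the values were seen.

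**Figure D4:**
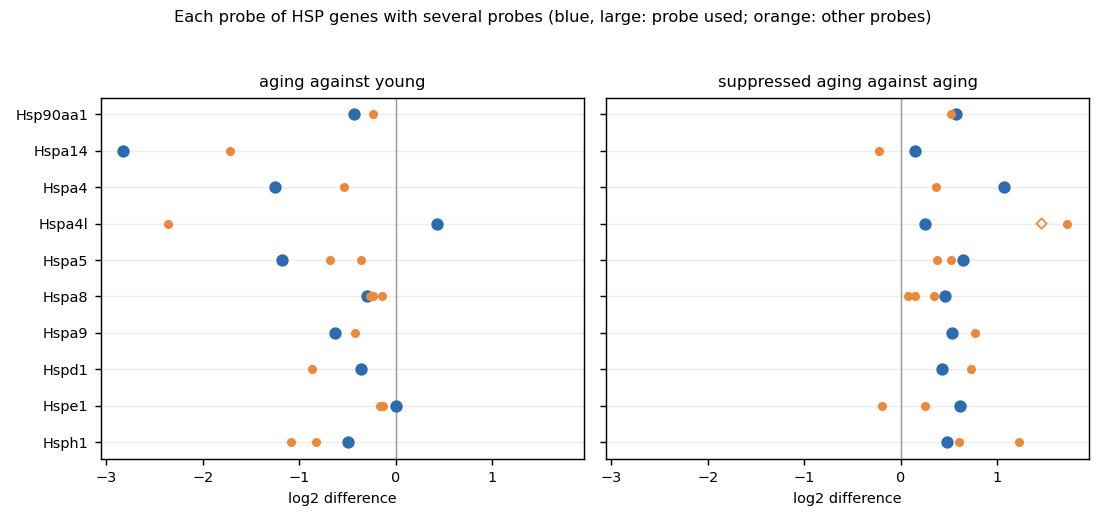
Log2 difference (x axis) of every probe of the 10 large heat shock protein genes with several probes, for aging versus young (left) and suppressed versus aging (right), with large blue points for the probe used, small orange points for the others and an open diamond for a difference of at least that size. Nearly all points lie left of 0 on the left and right of 0 on the right, and the spread between probes of Hspa4l, Hspa14 and Hspa5 is wide.

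The inducible HSP70 genes Hspa1a and Hspa1b lie beside each other and are near-identical, each was read by 1 probe, and whether the probe of the one also reads the other was not tested, so their values are uncertain. Hspa1b read -0.42 in the young pool and -1.09 in the suppressed pool and was not above background in aging blastocysts, where its probe read -4.52. It was at least 15.0-fold lower in aging than in young blastocysts and at least 9.40-fold higher after suppression. Hspa1a went the other way, with levels of -3.85 in young and -2.69 in aging blastocysts, and with no signal above background in suppressed aging blastocysts, which made it 1.16 higher in aging than in young blastocysts and at least 1.24 lower after suppression. These probes lie in the dim range. Under the normexp background correction, which adds an offset of 50 to every intensity and so shrinks the differences of dim probes, Hspa1b gave -1.31 for aging versus young and 1.02 for suppressed versus aging, and Hspa1a gave 0.13 for aging versus young.

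Hspa14 stood apart from the other HSP70 genes. It codes for an atypical HSP70 that sits at the ribosome with Dnajc2. Its level was 6.27 in young, 3.45 in aging and 3.60 in suppressed aging blastocysts, so that both aging pools lay well below the young one and close to each other. The differences from young were -2.83 and -2.67, and its second probe gave -1.72 and -1.94. Under normexp the differences from young were -2.76 and -2.64. Dnajc2, named after its values were seen, read 3.31, 2.74 and 3.55, with 1 probe. Of the other HSP70 genes, Hspa12a, an atypical member, was higher in both aging pools, at -3.16 in young, -1.23 in aging and -1.21 in suppressed aging blastocysts, which is 1.93 and 1.95 above young. Hspa2, known from the testis, read -0.67, -0.76 and -0.83 and differed little. Hspa1l, also a gene of the testis, was above background in aging blastocysts only, at least 1.34 above young and at least 1.08 above the suppressed pool. Hspa12b was above background in suppressed aging blastocysts only, at least 1.05 above aging and at least 1.22 above young. These differences of dim probes were smaller under normexp. There Hspa12a gave 0.55 for aging and 0.68 for suppressed versus young. Hspa1l gave 0.37 for aging versus young and -0.15 for suppressed versus aging. Hspa12b gave 0.35 for suppressed versus aging and 0.44 for suppressed versus young.

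The heat shock factors differed by less than 2-fold between the pools. Hsf1, the main activator of the stress response, read 0.92 in young, 1.09 in aging and 0.77 in suppressed aging blastocysts. Hsf2, which acts in development and with Hsf1, read 1.44, 2.08 and 1.57. Both levels were highest in aging blastocysts, by 0.17 and 0.63 over young, where most of the large heat shock proteins were lowest. Transcript levels do not show the activity of Hsf1, which is set on the protein.

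Heat shock factors bind repeats of the letters GAA in alternating orientation. As a description of these genes' promoters, the motif GAANNTTCNNGAA, and TTCNNGAANNTTC on the other strand, was searched from 250 bases before to 50 bases after each RefSeq start. It was found in 0.603% of 32851 windows of that length, in 0.662% of 27025 genes and in 4 of the 67 members with a window (5.97%): Hspd1, Hspe1, Hsph1 and Dnajb6. Hspd1 and Hspe1 are read in opposite directions from 1 shared promoter and so share their match, which makes the 4 genes 3 places in the genome. The 200 bases before the start are shown for Hspe1 (chr1:55087948-55088147, plus strand) and for Dnajb6 (chr5:29735698-29735897, plus strand) in GRCm38.p6, with the motif in capitals, because these stretches hold the match next to genes whose values are given here. In Hspe1 2 matches overlap.
Hspe1: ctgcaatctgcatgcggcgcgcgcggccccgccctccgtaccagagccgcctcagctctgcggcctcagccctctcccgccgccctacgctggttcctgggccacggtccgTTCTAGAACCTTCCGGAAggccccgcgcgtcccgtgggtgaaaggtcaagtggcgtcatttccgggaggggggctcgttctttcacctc
Dnajb6: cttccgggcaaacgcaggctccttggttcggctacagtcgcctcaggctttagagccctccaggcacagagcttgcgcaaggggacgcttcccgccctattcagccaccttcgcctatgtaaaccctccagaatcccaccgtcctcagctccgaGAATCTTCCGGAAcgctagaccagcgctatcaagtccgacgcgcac

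In Hsph1 the match TTCTGGAAAGTTC lay 37 to 49 bases after a start. The 4 genes with the motif had median differences of -0.18 for aging versus young, 0.46 for suppressed versus aging and 0.05 for suppressed versus young, whereas members without it had 0.05, 0.12 and 0.07. Of the 4, Hspd1, Hspe1 and Hsph1 are also large heat shock proteins, a grouping made after the values were seen. The contrast with the other members thus partly repeats the values of that grouping, and a part of the motif was not tested. All genes with the motif, 64 in the first comparison, had medians of 0.01, 0.02 and 0.07. Dnajb6, named after its values were seen, is a DNAJ protein that holds back aggregates. It read 5.70, 5.90 and 5.73, and of its 5 probes 3 were lower in aging blastocysts and 4 higher after suppression. The letters mark no binding.

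Among the DNAJ proteins of the cytosol, Dnaja1 and Dnajb1 had their lowest level in aging blastocysts and their highest after suppression, by the probe used, and others did not, such as Dnajb4, Dnajb6 and Dnajc7, named after their values were seen. Dnajb4 read -0.19, -0.17 and -0.36, and Dnajc7 read 5.42, 5.16 and 5.14. A dimmer probe of Dnajc7 was lowest in aging and highest in suppressed blastocysts, with differences of -0.71 and then 0.95. The dimmer probes of Dnajb4 gave -0.32 and 0.11 for aging versus young, and 0.999 and 0.66 for suppressed versus aging. Dnaja2, also named after its values were seen, read 4.58, 4.39 and 4.58. It had the same order as Dnaja1 and Dnajb1, with the suppressed pool only 0.004 above young. Other DNAJ genes had that order by the probe used, such as Dnajc2, Dnajc5 and Dnajc8, named after their values were seen. Dnaja1 read 5.88 in young, 5.57 in aging and 6.27 in suppressed aging blastocysts, and both of its probes were over 1.5-fold higher in suppressed aging than in aging blastocysts, by 0.70 and 0.74. Its second probe, which was dim, was higher in aging than in young blastocysts by 0.61 where the first gave -0.31. Dnajb1, the DNAJ protein that rises with stress, read 6.44, 6.24 and 6.77. The DNAJ partners of Hspa5 in the endoplasmic reticulum did not share its pattern. Dnajb9 read 0.84, 1.22 and 1.35 and both probes were higher in aging than in young blastocysts, whereas Dnajc3 read 1.29, 0.90 and 0.82. Dnajc1, a partner of Hspa5 in the membrane of the endoplasmic reticulum, read 2.00 in young, -0.12 in aging and -0.05 in suppressed aging blastocysts. Like Hspa14, it was lower in both aging pools, at -2.13 and -2.06 from young, and it had 1 probe.

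Other DNAJ genes over 2-fold apart lay mostly in the dim range, and under normexp Dnajc5g, Dnajc12 and Dnajc6 were 0.60, 0.50 and 0.73 higher in aging than in young blastocysts. Dnajc6, which codes for auxilin and strips the clathrin coat from vesicles, read -2.08, -0.52 and -0.97, which is 1.56 and 1.12 higher than young in the aging and suppressed pools. Dnajc18 read -2.96, -1.21 and -0.57, with differences from young of 1.75 and 2.39, but its second probe placed aging at -0.03 from young and the suppressed pool at 0.53. Dnajc5g and Dnajc12 were not above background in young blastocysts and reached -1.58 and -1.52 in aging and -1.81 and -2.48 in suppressed aging blastocysts, so that they were at least 2.62 and 2.29 higher in aging than in young blastocysts and at least 2.39 and 1.32 higher in the suppressed pool. Dnaja4 and Dnajb7 were above background in aging but not in suppressed aging blastocysts, at least 1.29 and 1.02 apart, and Dnaja4 was 1.002 and Dnajb7 at least 1.29 above young in the aging pool. Dnajc22 was 1.38 higher in suppressed aging than in aging blastocysts and, with no signal above background in young ones, at least 1.44 above young. For Dnajc27, a DNAJ protein with a Rab-like domain, both probes were over 1.5-fold higher in aging than in young blastocysts, by at least 0.84 and by 2.32, but after suppression one gave 0.47 and the other -2.66 or lower. In suppressed versus young blastocysts the probe used was at least 1.32 higher, and -0.16 apart, in the other direction, under the normexp background correction.

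Dnajc21, which works in the making of the large ribosomal subunit, was read by 3 probes that disagreed. The one used read 4.18, 4.27 and 5.36, with the suppressed pool 1.10 above aging and 1.18 above young. Another gave -1.51 for aging versus young and 1.82 for suppressed versus aging, and the last 0.68 and -0.02. Over the DNAJC family, 20 of the 26 genes that could be compared were higher in suppressed aging than in young blastocysts, with a median of 0.23. Over all genes 53.2% were higher, and 56.6% of those with a level above 0. By the authors' processed values 18 of the 26 were higher, beside 48.4% of all genes. No gene of the 83 had probes that opposed each other over 2-fold.

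The chaperonin CCT is a double ring of different subunits that folds actin and tubulin. Most of its genes differed little. Cct2, Cct4, Cct5, Cct6a, Cct6b and Cct8 lay between -0.13 and 0.25 for aging versus young and between -0.36 and 0.20 for suppressed versus aging. Cct3 read 2.66, 2.50 and 3.08. Tcp1, the first subunit, was lower in aging blastocysts, at 4.71 in young, 4.01 in aging and 4.78 in suppressed aging blastocysts. Cct7 was the only CCT gene over 2-fold apart, at 6.76, 6.55 and 7.57, with the suppressed pool 1.02 above aging and 0.81 above young. Tcp1 and Cct7 had 1 probe each. For Cct4, Cct5 and Cct8 the probe used was 0.12, 0.12 and 0.03 higher in aging than in young blastocysts, whereas dimmer probes of the same genes were lower with differences of -0.84, -1.01 and -0.80, so the small differences of CCT hold for the brightest probes. With all probes of a gene averaged, 7 of the 9 CCT genes were lower in aging than in young blastocysts, with a median of -0.23, and 7 were higher in suppressed aging than in aging blastocysts, with a median of 0.30.

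The small heat shock proteins had no direction that all of them shared. In aging versus young blastocysts 4 of 6 were higher, with a median of 0.40. After suppression 5 of 7 were higher than in aging blastocysts, with a median of 0.81, or 0.26 under normexp. In suppressed versus young blastocysts 5 of 7 were higher, with a median of 0.53. Over all genes 52.8%, 49.6% and 53.2% were higher. Hspb1, the best known of them and a partner of the actin skeleton, read 3.34 in young, 3.93 in aging and 4.30 in suppressed aging blastocysts, higher in both aging pools. Hspb11, which is part of the transport complex of cilia, read 2.13, 3.46 and 1.79, a difference of 1.33 in aging versus young and of -1.67 after suppression. Hspb8, which with Bag3 sends misfolded proteins to autophagy, read 0.35, 1.63 and 0.88, which is 1.28 higher in aging than in young blastocysts. Hspb2 was lowest in aging blastocysts, at 0.43, -0.38 and 0.69, and 1.08 higher after suppression. For Hspb6, the probe used read -1.42, -1.22 and 0.04, which is 1.26 higher after suppression and 1.46 above young. Its second probe read -1.05, -1.01 and -1.18 and gave -0.17 and -0.13. The probe used was thus the brighter on average only through its reading in the suppressed pool, the value compared. Hspb7 was above background in suppressed aging blastocysts only, by 1 of its 2 probes, at least 2.00 above aging and at least 1.88 above young. Under normexp it gave 0.61 and 0.46. Hspb9, known from the testis, read -3.44 in young and -3.51 in suppressed blastocysts and was not above background in aging blastocysts, at least 0.88 below young.

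Of 42 further genes that work with these chaperones, such as cochaperones of HSP70 and HSP90, prefoldin and mitochondrial proteases, all were above background on every array. In aging versus young blastocysts 24 were higher and 18 lower, for a median of 0.04, in suppressed versus aging 23 and 19 with 0.03, and in suppressed versus young 28 and 14 with 0.15. Over all genes, 52.8%, 49.6% and 53.2% were higher in these comparisons, and 56.6% in the last among genes with a level above 0. Over 2-fold apart, beside the shares of all genes given above, were only Bag2 and Bag5, nucleotide exchange factors of HSP70. Bag2 read -3.34 in young, -0.99 in aging and -2.46 in suppressed aging blastocysts, a difference of 2.35 and then of -1.47. Bag5 read 2.93, 2.92 and 4.06, so that it was 1.14 higher in the suppressed pool than in the aging pool and 1.13 higher than in the young one. The following were named after their values were seen. Fkbp4 and Ppid, immunophilins that bind HSP90, read 6.46, 5.63 and 6.43, and 6.10, 5.38 and 6.15, lowest in aging blastocysts. St13 and Chordc1, a partner of HSP70 and one of HSP90, gave -0.51 and -0.43 for aging versus young and 0.80 and 0.96 for suppressed versus aging. Stip1, which joins HSP70 to HSP90, and Ahsa1, which speeds the ATPase of HSP90, did not share this order and were 0.16 and 0.47 higher in aging than in young blastocysts and 0.02 and 0.04 higher after suppression. Bag3 read 3.57, 4.40 and 4.19.

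Genes of other cells and lineages also differed between the same pools, and are given with their summed level, the log2 of their summed intensities on the scale above. Trophectoderm markers had median levels of 4.20 in young, 3.83 in aging and 4.12 in suppressed aging blastocysts, with 5 of 7 lower in aging and 5 of 7 higher after suppression, and their summed level was 8.82, 8.48 and 8.70. Epiblast and inner cell mass markers had summed levels of 9.99, 10.26 and 10.15, and all 6 were higher in aging than in young and lower after suppression than in aging blastocysts. Of 5 primitive endoderm markers, with summed levels of 4.02, 4.29 and 4.02, Sox17 gave -1.53 for aging versus young and 0.89 for suppressed versus aging, whereas Pdgfra gave 1.28 and -0.71 and Gata6 0.99 and -0.77. Oocyte markers were above background for 3, 4 and 2 of 5 genes with summed levels of -0.999, 0.77 and -0.85. Zp2, Zp3 and Bmp15 were highest in aging blastocysts. Gdf9 was not, at -1.99 in young and -2.05 in aging blastocysts, and was not above background in suppressed ones. Zp1 was above background on none. Cumulus and granulosa markers were above background for 3 of 8 genes on each array, with summed levels of 8.66, 8.55 and 8.78 that came almost wholly from Foxl2, while Fshr, Has2, Ptx3, Tnfaip6 and Inha were not above background. Of the 4 blood markers on the array, 2, 2 and 1 were above background, and Ptprc and Hbb-bt on none, with summed levels of -0.07, 0.66 and -1.002. Oviduct markers were above background for 0, 0 and 1 of 3 genes, with summed levels of -3.91, -3.91 and -2.20. The part of these cells in the differences of the chaperones was not tested.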

How the data were processed

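The members, the families and the lists of cochaperones and markers were chosen with earlier results of these data known. One-color Agilent mouse arrays (SurePrint G3 type) were used, 1 for each pool. The authors deposited for each spot a linear intensity, background-subtracted and detrended in Agilent Feature Extraction 12.0.3.1 and not normalized across arrays. A table of processed values that the authors deposited holds the same intensity times 1 factor per array. The methods describe single-primer PCR amplification whereas the labels name cRNA labelling, which the files do not settle.

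Control spots and outlier spots (100, 85 and 118 on the young, aging and suppressed aging arrays) were left out, and none was saturated. Replicate spots were averaged on the log2 scale, and each array was scaled to its 75th percentile (an intensity of 145, 155 and 122). Of 56591 probes, 29679 were named through their RefSeq mRNA accession, without version, in a GRCm38.p6 gene table. The array design names an older build, so no probe coordinates are given. Each gene was read by its brightest probe on average among those above background on at least 1 array. Promoters came from RefSeq windows of GRCm38.p6.

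With 1 array per pool no test was made. Differences over 2-fold and over 5-fold were counted, beside the same count over all named genes. Named in the text are the main chaperones of each compartment, every member over 2-fold apart, members whose probes all differed over 1.5-fold in 1 direction or opposed each other over 2-fold, members not above background on any array, and cochaperones over 2-fold apart. Alternatives tried were no filter, probes above background on both arrays alone, all probes of a gene averaged, outlier spots kept, the authors' processed values, scaling to 15 housekeeping genes or to the median of probes above background everywhere, quantile scaling, and background correction by normexp (limma 3.58.1 in R 4.3.3, offset 50). The grouping of the large heat shock proteins, the brightness classes and the count by probe were added after seeing the data. The fold calls were run on simulated data, a copy of the young array with small noise and known changes larger than 2-fold. That run checks the computation and not the error of pools or arrays. Computations used pandas 2.3.3 and NumPy 2.4.6 in Python 3.11.15, and figures Matplotlib 3.10.9. Protein sequences were not used here.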

Additional observations from a re-analysis of the deposited data

How the results depend on the processing

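When the counts and medians of the 83 genes were computed again under each alternative, 90 values stayed within their limit of change and 18 moved. With normexp, the genes over 2-fold higher and over 5-fold apart became 2 and 1 in aging versus young, those over 2-fold higher, over 2-fold lower and over 5-fold apart became 1, 1 and 0 in suppressed versus aging, and those over 2-fold higher and over 5-fold apart became 2 and 1 in suppressed versus young. With all probes of a gene averaged, 3 genes were over 2-fold lower in aging than in young blastocysts, the median of suppressed versus aging was 0.22, and 1 gene was over 5-fold apart in suppressed versus young. With only probes above background on both arrays, 7 genes were over 2-fold higher and 1 over 5-fold apart in aging versus young, 1 over 2-fold lower and 0 over 5-fold apart in suppressed versus aging, and 5 over 2-fold higher in suppressed versus young. With no filter, 4 genes were over 5-fold apart in suppressed versus aging, and 4 over 2-fold lower and 5 over 5-fold apart in suppressed versus young. The cause was not tested, other than that leaving out or keeping dim probes changes which genes can be counted. The direction of a gene past 2-fold was checked only in the alternatives in which it had a value. No change of direction was seen there for 16 of 16, 14 of 14 and 12 of 13 genes. The exception was Dnajc27 in suppressed versus young, at -0.16 under normexp. Genes whose difference is written as at least a size had no value with only probes above background on both arrays. Hspa1a had none under normexp for suppressed versus aging.

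The median of the large heat shock proteins stayed between -0.42 and -0.29 in aging versus young and between 0.32 and 0.46 in suppressed versus aging. Relative to the median of all genes, the first was -0.40 and became -0.21 with no filter, where all genes had a median of -0.08. The CCT median changed sign with all probes of a gene averaged, from 0.03 to -0.23 in aging versus young and from -0.07 to 0.30 in suppressed versus aging. No paired analysis was possible because there was 1 array per condition. For the same reason no array could be left out, and the slide could not be fitted as a block because it held all 3 arrays. Dim probes limit the values near the detection limit, and the number of arrays limits all of them.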
